A study of Mus musculus with 6 samples.

Results

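Cd44 and a group of cytoskeletal, calcium-binding and membrane-linked genes of memory and effector T cells were followed in naive CD4+ T cells of mouse spleen, in cells from mice given rapamycin in vivo and in cells from untreated mice. The group is Cd44, Crip1, Vim, Ahnak, S100a4, S100a6, S100a10, S100a11, Lgals1 and Anxa2, taken by name as 10 of the 55487 genes in the deposited tables, and 9 of them were among the 11950 genes that passed the filter on low counts. S100a4 did not pass and is given by its counts. Both groups were wild-type C57BL6/J mice with poly(A) RNA sequenced from total naive CD4+ T cells of spleen. There were 3 libraries after in vivo rapamycin, an inhibitor of the kinase mTOR, and 3 libraries with no treatment. The question was what inhibition of mTOR does to these cells. The labels give no dose, duration, age or sex and no gate for the sort. They leave unstated which mouse each library came from, so p-values measure the spread between libraries only, and part of that spread may be technical.

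CD44 is a cell surface receptor for hyaluronan, low on naive T cells and raised on activated, effector and memory T cells, and its tail binds the membrane-to-actin linkers of the ezrin family. When T cells have met antigen they also tend to carry more RNA of a set of structural and calcium-binding proteins: the LIM protein gene Crip1, the intermediate filament gene Vim, the small calcium-binding S100 proteins, the calcium-dependent membrane binder annexin A2, the sugar-binding protein galectin-1 and the giant scaffold AHNAK. S100A10 and annexin A2 form a complex that AHNAK binds under the plasma membrane, so that these 3 genes encode parts of a physical assembly.

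The members did not move as 1 block with rapamycin. Of the 9 tested, 7 were lower and 2 were higher at an adjusted p under 0.05 by edgeR's quasi-likelihood test, where 23.3% of all genes tested were lower and 24.1% were higher, and 47.4% were called in either direction. Cd44, Crip1, Lgals1 and S100a6 fell by at least 2-fold, as did 1.62% of all genes tested, and Ahnak rose by at least 2-fold, as did 1.56%. S100a6 passed the filter on low counts only through the untreated libraries, where it was high, so its fall is a description only. The median log2 fold change of the 9 was −0.98, beside −0.01 over all genes tested. With a length correction described below, 5 were lower and 2 higher, where 18.2% of all genes tested were lower, 20.2% higher and 38.4% either. In CPM, a scale that makes counts comparable between libraries of unequal depth, the groups did not overlap for any of the 9, 2 being higher and 7 lower. This held for 53.8% of genes tested, 26.9% higher and 26.8% lower.

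**Figure D1:**
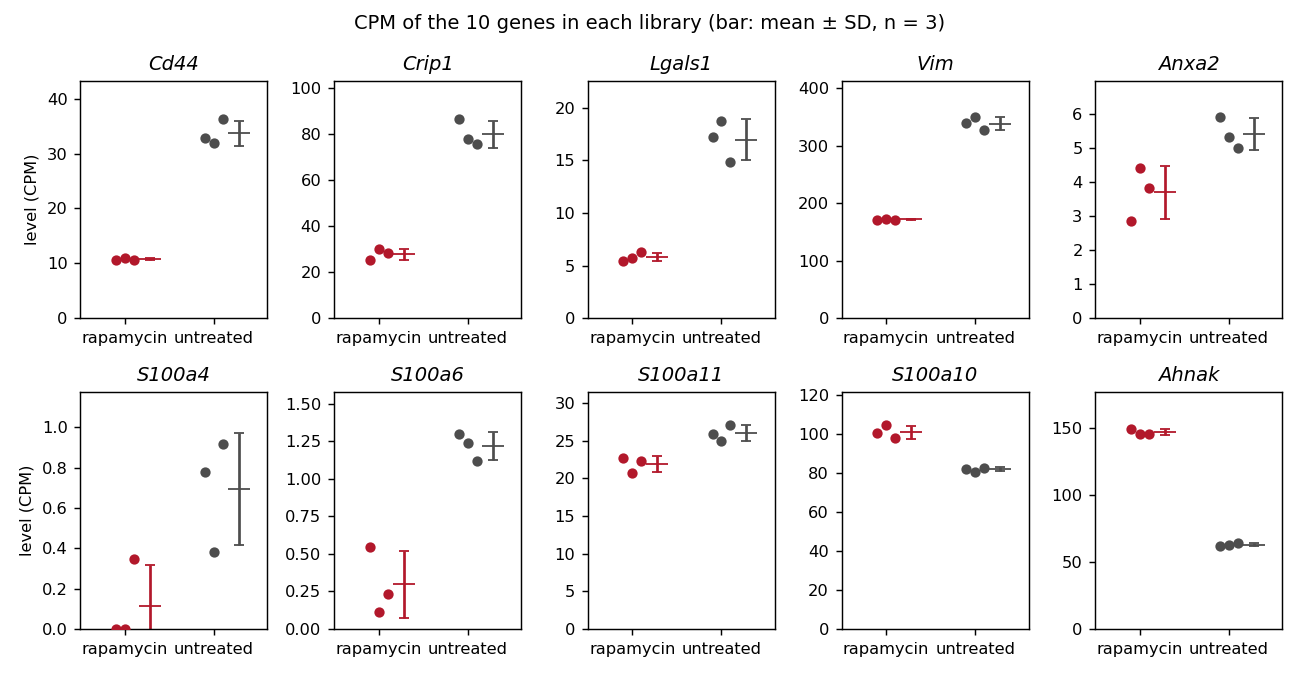
Level of each of the 10 genes in CPM (vertical axes, each from 0) in the 3 rapamycin and the 3 untreated libraries (points), with mean ± SD beside them (the lower bar of S100a4 is cut at 0). Cd44 lay between 10.6 and 10.9 CPM with rapamycin and between 32.0 and 36.3 CPM without treatment, while Ahnak and S100a10 were higher with rapamycin.

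Total expected counts ran from 8757280 to 11393317 per library, so that a floor of 3 counts lay between 0.322 and 0.343 CPM in rapamycin and between 0.263 and 0.309 CPM in untreated libraries. Log2 fold changes below are rapamycin over untreated ± SE. As for the label, Cd4 averaged 687 CPM in rapamycin and 716 CPM in untreated libraries. Transcripts of other cells were not absent: Cd8a, of CD8 T cells, averaged 43.4 CPM with rapamycin and 5.07 CPM without. Ighm, of B cells, averaged 530 CPM with rapamycin and 794 CPM without. Log2 fold changes across genes averaging 2 or more in log2 CPM followed transcript length. Their median was −0.32 in the shortest 10th of genes (up to 1062 bases) and 0.25 in the longest 10th (above 5091 bases). Shares given below for a 10th of genes by length are of these genes only. Fragments implied by the deposited lengths were 251.5 to 257.5 bases long in rapamycin and 240.2 to 240.8 bases long in untreated libraries, and the part of fragment length in the results was not tested. Each member is therefore also given with a length-corrected fit, in which a smooth trend on transcript length was taken out of every library.

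Cd44, Crip1, Vim and Ahnak are shown by the 300 bases around their RefSeq start (250 before and 50 after it) because they are the well-counted members with an entry and large changes, 3 of them lower and 1 higher. Capitals mark every match to the GC box GGGCGG, bound by SP and KLF factors, to the TATA box TATAAA, to the AP-1 site TGANTCA and to the CArG box of serum response factor, on either strand, and no match overlapped that of another motif. Cd44 is chr2:102901616-102901915 on the minus strand, Crip1 chr12:113151762-113152061, Vim chr2:13574061-13574360 and Ahnak chr19:8989034-8989333, all 3 on the plus strand, in GRCm38.p6.
Cd44: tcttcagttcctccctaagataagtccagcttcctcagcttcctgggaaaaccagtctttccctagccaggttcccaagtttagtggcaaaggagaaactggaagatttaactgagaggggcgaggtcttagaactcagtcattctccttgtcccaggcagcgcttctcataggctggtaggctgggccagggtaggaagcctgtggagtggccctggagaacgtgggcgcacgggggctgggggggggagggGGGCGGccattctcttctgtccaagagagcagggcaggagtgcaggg
Crip1: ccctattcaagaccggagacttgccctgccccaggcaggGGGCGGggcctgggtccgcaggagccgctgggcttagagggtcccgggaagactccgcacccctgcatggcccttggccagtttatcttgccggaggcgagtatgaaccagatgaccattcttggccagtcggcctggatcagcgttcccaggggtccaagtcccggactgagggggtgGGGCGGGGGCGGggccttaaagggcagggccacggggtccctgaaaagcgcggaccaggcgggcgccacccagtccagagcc
Vim: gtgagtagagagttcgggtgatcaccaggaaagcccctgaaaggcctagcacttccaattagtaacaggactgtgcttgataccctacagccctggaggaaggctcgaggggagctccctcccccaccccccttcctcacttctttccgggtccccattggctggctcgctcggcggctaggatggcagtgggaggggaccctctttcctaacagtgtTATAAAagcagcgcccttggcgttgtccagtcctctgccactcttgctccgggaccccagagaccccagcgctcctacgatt
Ahnak: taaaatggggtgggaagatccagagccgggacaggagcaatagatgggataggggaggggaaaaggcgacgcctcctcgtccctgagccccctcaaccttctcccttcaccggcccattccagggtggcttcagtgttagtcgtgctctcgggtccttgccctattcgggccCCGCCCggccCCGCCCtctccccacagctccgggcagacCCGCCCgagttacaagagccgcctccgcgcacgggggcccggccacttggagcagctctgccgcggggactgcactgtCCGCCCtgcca

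Crip1 held 3 GC boxes and Cd44 held 1, Ahnak held 4, and Vim held none but a TATA box 32 bases before its start. RefSeq entries were matched for 8 of the 10 members. Of those 8 promoters 5 held a GC box, against 35.7% of 32851 promoters of the same length, 3 held a TATA box, against 13.6%, 2 held an AP-1 site (Anxa2 and S100a11), against 7.81%, and 0 held a CArG box, against 1.63%. A match describes these letters only, and nothing follows from it about a factor.

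Cd44 (ENSMUSG00000005087, mm10 chromosome 2, 102811141 to 102901665, minus strand) had 10.6, 10.9 and 10.7 CPM in the rapamycin libraries, against 32.8, 32.0 and 36.3 CPM in the untreated libraries. Every rapamycin library was below every untreated one, with an SD of 0.185 CPM in rapamycin and 2.31 CPM in untreated libraries. The mean fell to 0.319 times the untreated level, a log2 fold change of −1.65 ± 0.11 (edgeR adjusted p = 7.3e-21), which ranked 68 from the lowest among the 11950 genes tested. With the length correction it was −1.76 (edgeR adjusted p = 2.0e-21). In bulk RNA, fewer cells with a given transcript and less of it per cell cannot be told apart.

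Cd44 is a gene of several isoforms, and the deposited length of a gene, which weights its isoforms by their estimated share, bears on them. That length was 3836, 3696 and 3486 bases for Cd44 in the rapamycin libraries and 3860, 3997 and 3900 bases in the untreated libraries. It was thus shorter in every rapamycin library than in any untreated one, on 92 to 97 counts per rapamycin library and 336 to 378 per untreated library. For Crip1 the order was the opposite, with 495, 492 and 495 bases with rapamycin and 477, 481 and 473 bases without. Of 9507 genes whose deposited length varied by over 1% between libraries, 17.8% had groups that did not overlap in this way. Lengths of Vim, Ahnak, Anxa2, S100a6, S100a10, S100a11 and Lgals1 overlapped between the groups or were tied, and S100a4 had too few counts for this.

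Crip1 encodes a short protein with a LIM zinc finger (ENSMUSG00000006360, mm10 chromosome 12, 113146316 to 113153879). It had 25.3, 29.9 and 28.3 CPM with rapamycin and 86.6, 77.8 and 75.6 CPM without. No library of either group came near those of the other, and the mean fell to 0.348 times the untreated level. The log2 fold change was −1.53 ± 0.07 (edgeR adjusted p = 1.3e-27), and −1.13 length-corrected. Its transcripts averaged 485 bases. Other short LIM proteins did not follow it closely. Csrp1, a LIM protein gene of actin bundles, fell by 0.31 on the log2 scale, while the transcription cofactor genes Lmo4 and Lmo2 gave 0.13 and 0.24 and were not called without the length correction (edgeR adjusted p = 0.24 and 0.12) but were called higher with it (0.25 and 0.36, edgeR adjusted p = 0.020 and 0.023). Of the 10 genes of that family 4 were tested, with 2 lower and 0 higher (2 lower and 2 higher length-corrected).

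Lgals1 encodes galectin-1, which binds sugars on the T cell surface (ENSMUSG00000068220, mm10 chromosome 15, 78926725 to 78930465). Its libraries had 5.46, 5.75 and 6.26 CPM with rapamycin and 17.3, 18.7 and 14.8 CPM without. The groups were well apart, with the untreated libraries the more variable (SD 0.403 CPM in rapamycin and 1.96 CPM in untreated libraries). The log2 fold change was −1.54 ± 0.15 (edgeR adjusted p = 6.8e-14; −1.25 length-corrected). Of 10 galectin family genes in the files, 6 were tested and 3 fell, Lgals1 the most of these. Lgals9 and Lgals3bp, the gene of a galectin-binding secreted protein, changed by −0.44 and −0.50, while Lgals8 and Lgals4 gave 0.10 each and were not called (0.19 and 0.32 length-corrected, both then called higher). Lgals3, another galectin found in activated T cells and macrophages, averaged 0.300 CPM in rapamycin and 0.749 CPM in untreated libraries and was not tested.

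Vim encodes vimentin, the intermediate filament protein of lymphocytes (ENSMUSG00000026728, mm10 chromosome 2, 13573927 to 13582826). Its level was 171, 173 and 170.3 CPM with rapamycin and 339, 349 and 326 CPM without. This was the most precisely measured fall among the members, to 0.507 times the untreated level, with a log2 fold change of −0.98 ± 0.03 (edgeR adjusted p = 1.1e-35; −0.88 length-corrected). Of 15 intermediate filament, lamin and cross-linker genes, 9 were tested, 6 rose and 2 fell, the 2 being Vim and Lmnb2 (−0.34), a B-type lamin gene. The cross-linkers Macf1, Plec and Dst rose by 0.75, 0.61 and 0.98 (length-corrected 0.39, 0.13 and 0.68), and Syne1, a nuclear envelope linker, rose by 0.35 (length-corrected 0.08, not called). These 4 lie in the longest 10th of genes, and the list's median of 0.35 became 0.11 with the length correction, with 4 higher and 2 lower. The lamin gene Lmnb1 gave 0.13 and was not called (edgeR adjusted p = 0.11). Lmna, a lamin gene with transcripts of 1765 bases on average, rose by 0.75 (edgeR adjusted p = 0.012). With the length correction its change was 0.83 (edgeR adjusted p = 0.0071), at 4.47 CPM in rapamycin and 2.66 CPM in untreated libraries.

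**Figure D2:**
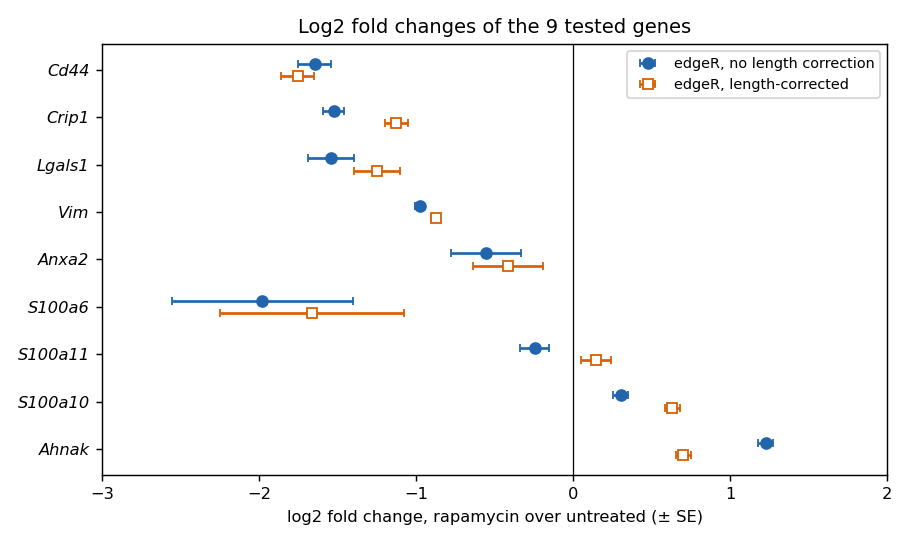
Log2 fold change, rapamycin over untreated, with its SE (horizontal axis) for the 9 tested members (rows), without (filled circles) and with (open squares) the length correction. Cd44, Crip1, Lgals1, S100a6 and Vim stayed below 0 and Ahnak and S100a10 above 0 in both fits, while S100a11 lay at −0.25 and 0.14.

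The S100 members all lie on chromosome 3. S100a4 (ENSMUSG00000001020, 90603771 to 90606045) and S100a6 (ENSMUSG00000001025, 90612882 to 90624181) are 6836 bases apart with S100a5 between them, and S100a11 (ENSMUSG00000027907, 93520488 to 93526287) and S100a10 (ENSMUSG00000041959, 93555080 to 93564643) are 28792 bases apart, in mm10. S100a4, a calcium-binding partner of non-muscle myosin, was hardly detected. It had 0, 0 and 3 counts in the rapamycin libraries and 9, 4 and 9 counts in the untreated libraries, that is 3 against 22 counts summed over each group. Per count sequenced, the untreated rate was 6.31 times the rapamycin rate, with an exact 95% interval of 1.90 to 32.9 that covers counting error only. Gm42674, a gene annotated over S100a4 on the same strand that matches 302 of its bases, had at most 0.437 CPM in a rapamycin library and 0 in each untreated library, so that the share of reads between them is uncertain.

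S100a6, calcyclin, is common in dividing and motile cells and was also close to the floor. Its libraries had 5, 1 and 2 counts with rapamycin and 15, 13 and 11 counts without, or 0.546, 0.113 and 0.232 CPM against 1.30, 1.24 and 1.12 CPM. All untreated libraries were above all rapamycin libraries, and 2 of the 3 rapamycin libraries were below the floor of 3 counts. The gene passed the filter on low counts only through the untreated libraries, and a fall was favoured by this. The log2 fold change was −1.98 ± 0.58 (edgeR adjusted p = 0.0035; −1.67 length-corrected, edgeR adjusted p = 0.019), with an SE several times that of the better counted members.

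S100a10 and S100a11 were far more abundant and behaved differently. S100a10 encodes p11, the S100 protein that works without calcium and pairs with annexin A2, and it had 100.5, 104.8 and 98.1 CPM with rapamycin and 82.4, 80.9 and 82.8 CPM without. It was higher in every rapamycin library, by 0.30 ± 0.05 on the log2 scale (edgeR adjusted p = 2.7e-07), and by 0.63 with the length correction (edgeR adjusted p = 3.6e-17). Its transcripts averaged 685 bases. Among the shortest 10th of genes, 62.9% were lower and 4.01% were higher without the correction.

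S100a11, the S100 partner of annexin A1, had 22.7, 20.6 and 22.2 CPM with rapamycin and 25.9, 24.9 and 27.0 CPM without. The groups did not overlap in CPM, and the log2 fold change was −0.25 ± 0.10 (edgeR adjusted p = 0.027). With the length correction it turned to 0.14 and was not called (edgeR adjusted p = 0.24), and in TPM, which is scaled by transcript length, the groups overlapped, at 123.5, 110.5 and 121.9 TPM with rapamycin and 125.5, 120.6 and 130.8 TPM without. The call was also lost without rapamycin replicate 2 (−0.21), untreated replicate 1 (−0.25) or untreated replicate 3 (−0.22). The gene has 5 annotated pseudogenes with at least 90% identity over at least 200 bases. Only Gm12854 had counts, at 0.338 to 0.983 CPM in rapamycin and 0.260 to 0.814 CPM in untreated libraries.

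Of 17 S100 family genes 6 were tested, with 5 lower and 1 higher (3 lower and 1 higher length-corrected) and a median of −1.27 (−0.96 length-corrected). S100a6, S100a8 and S100a9, the 3 lower with the length correction, passed the filter on low counts only through the untreated libraries. Their falls are descriptions only, and the counts and median include them. S100a9 and S100a8, which encode the neutrophil and monocyte protein pair calprotectin, changed by −2.62 ± 0.28 and −2.17 ± 0.37, beside −1.98 ± 0.58 for S100a6. S100a13 changed by −0.57, or −0.25 and not called with the length correction. S100a2 and S100a7a had no count in any library. Summed over the family, the level was 135.9 to 137 CPM in rapamycin and 133 to 138 CPM in untreated libraries, since S100a10 made up most of it.

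Anxa2 encodes annexin A2, which binds membrane phospholipids when calcium rises (ENSMUSG00000032231, mm10 chromosome 9, 69453620 to 69491795). Its libraries had 2.84, 4.40 and 3.82 CPM with rapamycin and 5.90, 5.33 and 4.98 CPM without, on 26 to 39 and 49 to 68 counts. The groups did not overlap, and rapamycin replicate 2 was the closest to the untreated libraries. The log2 fold change of −0.56 ± 0.22 passed the test (edgeR adjusted p = 0.035), and missed it with the length correction (−0.41, edgeR adjusted p = 0.14). It was also lost without rapamycin replicate 1 (−0.40) or 3 (−0.58) and without untreated replicate 1 (−0.49) or 2 (−0.57). An antisense gene, Gm16144, overlaps Anxa2 and had at most 0.0951 CPM in any library. Anxa5, a phosphatidylserine-binding annexin gene, fell to 50.3 CPM in rapamycin against 81.3 CPM in untreated libraries (−0.69 ± 0.06, edgeR adjusted p = 6.0e-16), and Anxa6 and Anxa11 changed by −0.19 and −0.15. Of 12 annexin genes 6 were tested, 4 fell and 0 rose (3 and 0 length-corrected), with a median of −0.37. Anxa8, Anxa10 and Anxa13 had no count.

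Ahnak, which encodes a giant scaffold that binds the S100A10 and annexin A2 complex (ENSMUSG00000069833, mm10 chromosome 19, 8989284 to 9076914), was the member that rose most. It had 149, 145 and 145 CPM with rapamycin and 61.7, 62.8 and 63.8 CPM without. Every rapamycin library was above every untreated one, the mean was 2.34 times the untreated level, and the log2 fold change was 1.23 ± 0.05 (edgeR adjusted p = 9.8e-32), which ranked 119 from the highest among all genes tested. Its transcripts averaged 17662 bases, in the longest 10th of genes, of which 68.1% were higher, and with the length correction the change was 0.70 (edgeR adjusted p = 1.4e-19). Its direction was thus the opposite of that of Cd44, Crip1, Lgals1 and Vim in both fits.

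Of 17 genes of membrane repair and the AHNAK assembly 11 were tested, 2 rose, Ahnak and S100a10, and 7 fell, with a median of −0.19 (−0.19 length-corrected, with 2 higher and 5 lower). The calcium channel subunit gene Cacnb3 changed by −0.72 ± 0.19 and the calpain gene Capn2 by −0.17. Within the assembly itself, S100a10 stood at 94.997, 65.6 and 71.3 times the TPM of Anxa2 in rapamycin libraries and at 37.9, 40.6 and 43.6 times in untreated libraries. Per length, the transcript of the S100 chain exceeded that of its annexin partner in every library, and the groups did not overlap (exact two-sided permutation p = 0.1).

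**Figure D3:**
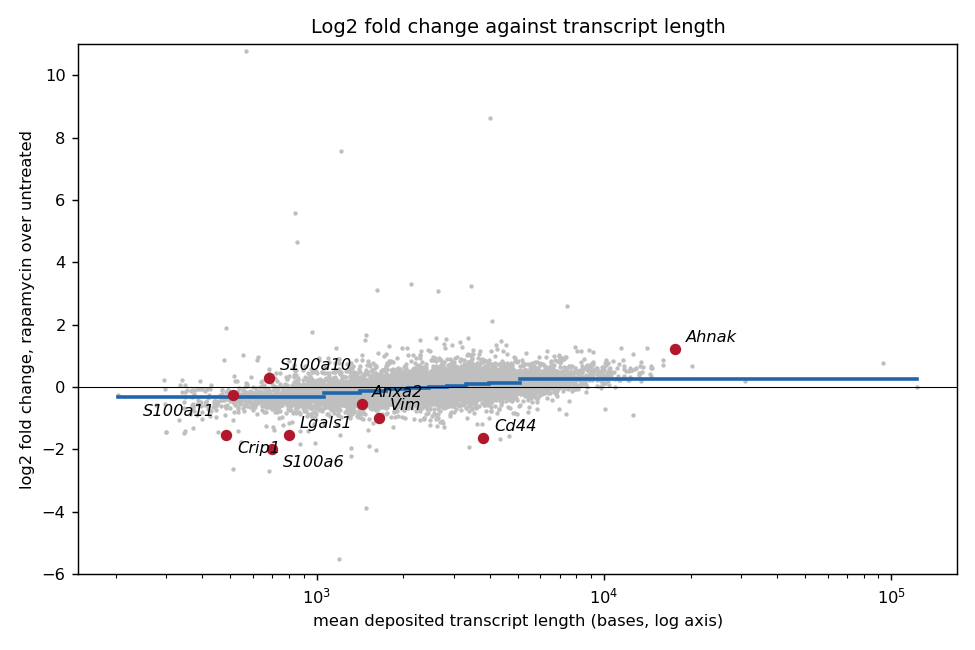
Log2 fold change, rapamycin over untreated (vertical axis), against mean deposited transcript length in bases (horizontal log axis) for genes averaging 2 or more in log2 CPM (grey), the median of each 10th of genes by length (blue steps), and the tested members (red; S100a6 lies under that level). Crip1, Lgals1 and S100a6 lie well below the median of the shortest 10th, S100a10 above it, and Cd44 far below that of genes of its own length.

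Per length, the order of the members also changed. In TPM the highest in rapamycin libraries was S100a10, at 328 ± 8.41 (SD, n = 3), followed by Vim (168 ± 15.5) and Crip1 (161 ± 13.3), whose ranges overlapped, and S100a11 (119 ± 7.09). In untreated libraries Crip1 came first, at 441 ± 32.0, then Vim (331 ± 23.5), S100a10 (242 ± 2.91) and S100a11 (126 ± 5.14), none overlapping with the next. Below them stood Lgals1 (14.9 ± 1.08 TPM in rapamycin and 40.0 ± 4.84 TPM in untreated libraries). Ahnak was at 11.8 ± 0.433 TPM in rapamycin and 4.76 ± 0.136 TPM in untreated libraries, Cd44 at 4.40 ± 0.242 and 12.1 ± 0.923 TPM, and Anxa2 at 4.36 ± 0.859 and 5.97 ± 0.416 TPM. Cd44 and Anxa2 overlapped in rapamycin libraries and did not in untreated libraries, and S100a4 and S100a6 were lowest in both groups, with S100a4 and S100a6 each overlapping Ahnak in untreated libraries.

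Set against Cd44 within each library, the members fell into separate patterns. The ratio of Crip1 to Cd44 in TPM was 35.2, 38.7 and 35.6 in rapamycin libraries and 40.1, 37.6 and 32.5 in untreated libraries, so that the groups overlapped. That of Lgals1 was 3.38, 3.30 and 3.49 with rapamycin and 3.42, 3.96 and 2.67 without. These 2 ratios differed by −0.01 and 0.03 on the log2 scale between the groups, less than the spread within them (exact two-sided permutation p = 1 and 0.9).

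The ratio of Vim was 44.7, 36.6 and 33.6 with rapamycin and 26.1, 31.8 and 24.9 without, and the groups did not overlap. The ratio of S100a11 was 29.8, 24.9 and 26.4 with rapamycin and 10.5, 10.8 and 10.03 without, and that of Anxa2 0.831, 1.16 and 0.974 with rapamycin and 0.539, 0.525 and 0.429 without. Neither overlapped between the groups. The ratio moved most for S100a10 (78.9, 76.0 and 69.4 with rapamycin and 20.4, 21.3 and 18.7 without) and for Ahnak (2.95, 2.62 and 2.47 with rapamycin and 0.398, 0.413 and 0.376 without). For Vim, S100a11, Anxa2, S100a10 and Ahnak the log2 ratio differed by 0.47, 1.37, 0.98, 1.89 and 2.76 between the groups, and the exact permutation test (two-sided) gave p = 0.1 for each, the smallest that 3 against 3 libraries can give, or 0.138 after Benjamini-Hochberg adjustment over the 11 ratios computed. S100a6 overlapped between the groups in its ratio to Cd44 (exact two-sided permutation p = 0.3). The share of memory-like cells itself was not measured here, and its part in the results was not tested.

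**Figure D4:**
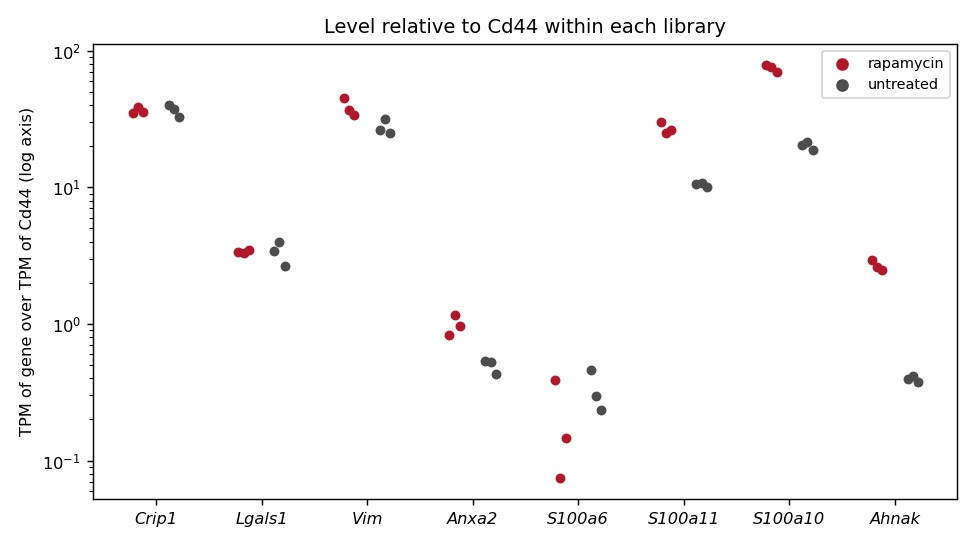
Ratio of the TPM of each gene to that of Cd44 within each library (vertical log axis; 3 rapamycin libraries in red on the left of each pair, 3 untreated libraries in grey on the right). Crip1 and Lgals1 overlap between the groups, and Vim, Anxa2, S100a11, S100a10 and Ahnak are higher relative to Cd44 in each rapamycin library.

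Other genes of memory and effector CD4+ cells moved both ways. Of 40 such genes beyond the members 32 were tested, and 12 fell and 10 rose (11 and 8 length-corrected), with a median of −0.15 (−0.05 length-corrected). Among the lower ones were the integrin chains Itgb2, Itgb7 and Itgal, of adhesion to vessel walls and gut, at −0.37, −0.27 and −0.23 (Itgal −0.42 length-corrected). Ifngr1, a receptor chain for interferon gamma, rose by 0.42. Chosen after their values were seen for the sizes of their changes, the chemokine receptor gene Ccr2 and the chemokine gene Ccl5 fell to 0.414 and 3.32 CPM in rapamycin libraries, against 2.35 and 8.81 CPM in untreated libraries, and the effector regulator gene Prdm1 and the chemokine receptor gene Cxcr6 rose to 18.7 and 4.14 CPM, against 8.94 and 1.79 CPM. Ccr2 passed the filter on low counts only through the untreated libraries, so its fall is a description only. Il4 had no count in any library. The list's summed level was 2542 to 2623 CPM in rapamycin and 2832 to 2874 CPM in untreated libraries.

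Naive T cell genes were more often higher. Of 22, all tested, 15 rose and 5 fell (14 and 2 length-corrected), with a median of 0.22, and their summed level was 13306 to 13458 CPM in rapamycin and 11345 to 11431 CPM in untreated libraries. Il7r, the interleukin 7 receptor chain of resting T cells, and the quiescence factor genes Foxp1 and Bach2 rose by 0.82, 0.47 and 0.76 (Bach2 0.47 length-corrected). Among the 5 that fell, the chemokine receptor gene Ccr7 (−0.12) and Treml2 (−0.37) stayed lower with the length correction (−0.07 and −0.43). Of 15 genes of regulatory T cells, which also carry CD44, 11 were tested, 4 rose and 1 fell (4 and 0 length-corrected), with a summed level of 66.7 to 80.3 CPM in rapamycin and 66.2 to 70.1 CPM in untreated libraries. The higher ones were Itgae at 2.59, Nrp1 at 2.27, Ctla4 at 0.82 and Ikzf2 at 0.76 (0.50 length-corrected). Itgae and Nrp1 averaged 3.66 and 3.51 CPM in rapamycin libraries, against 0.603 and 0.716 CPM in untreated libraries. Both passed the filter on low counts only through the rapamycin libraries, so their rises are descriptions only. Foxp3, the lineage factor, averaged 1.91 CPM in rapamycin and 1.63 CPM in untreated libraries and was not called (0.23, edgeR adjusted p = 0.63). Early activation genes rose in 6 of 10 tested cases and fell in 2 (6 and 1 length-corrected; median 0.27), among them Nr4a1 (0.55), Nr4a3 (0.95), Jun (0.29) and Fos (0.25).

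Actin genes were mostly lower. All 34 were tested, 23 fell and 8 rose (22 and 4 length-corrected), with a median of −0.21 (−0.14 length-corrected). Actg1, a cytoplasmic actin gene, fell to 1603 CPM in rapamycin against 2218 CPM in untreated libraries, a change of −0.47, and the actin-severing and monomer-binding genes Cfl1 and Pfn1 changed by −0.48 and −0.44 (Pfn1 −0.18 length-corrected), beside −0.35 for Coro1a (−0.22 length-corrected). Of 21 linkers and partners of CD44, 17 were tested, 6 rose and 5 fell (5 and 5 length-corrected; median 0.01). The linkers themselves, Ezr, Msn and Rdx, were not called, at −0.005, 0.01 and 0.07 (edgeR adjusted p = 0.88, 0.67 and 0.12), though Msn was −0.09 and called with the length correction. Itga4, an integrin chain that pairs with Itgb1 in a CD44-associated receptor, rose by 0.81 (0.46 length-corrected), Selplg, a selectin ligand gene, by 0.23, and the linker-related gene Nf2 by 0.39. Cd74 changed by −0.16 and turned to 0.035, not called, with the length correction. Chosen after their values were seen, the other large changes of the list were falls at low levels. The matrix metalloproteinase genes Mmp14 and Mmp9 averaged 0.262 and 0.795 CPM in rapamycin libraries, against 1.65 and 2.46 CPM in untreated libraries (−2.58 and −1.62), and Lrp1, an endocytic receptor gene, changed by −1.17. Mmp14, Mmp9 and Lrp1 passed the filter on low counts only through the untreated libraries, so their falls are descriptions only.

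**Figure D5:**
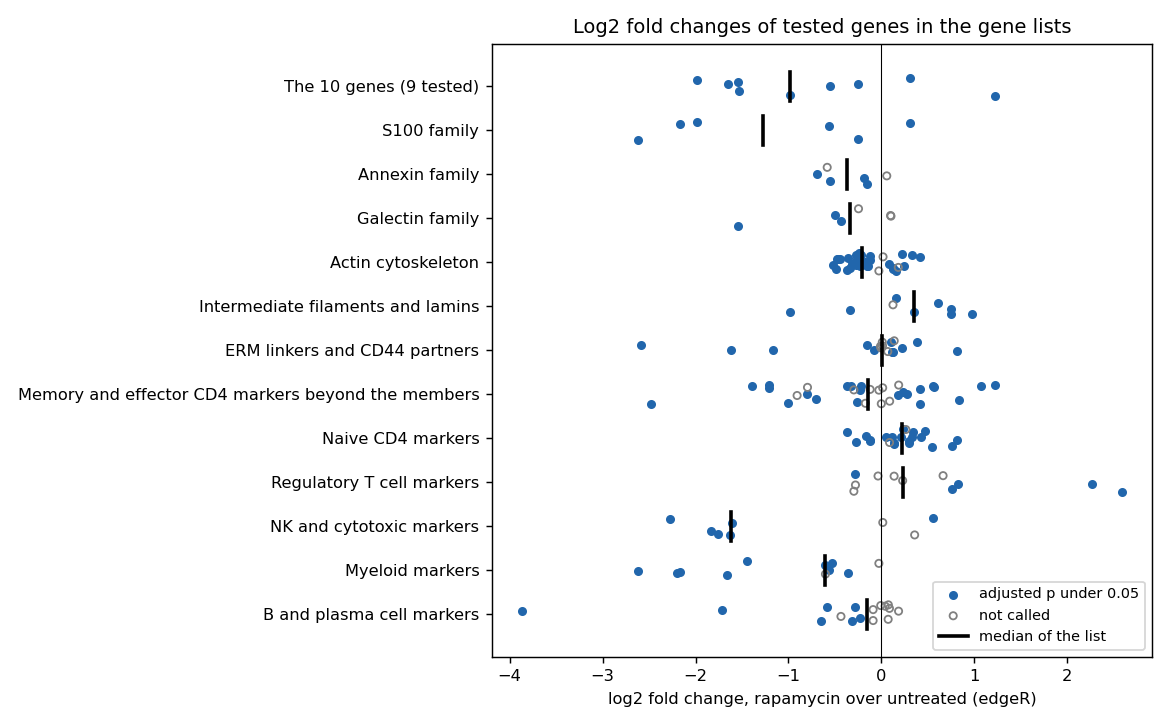
Log2 fold change, rapamycin over untreated (horizontal axis), of every tested gene in 13 lists (rows; filled points have an adjusted p under 0.05, open points do not, black bars are medians; vertical scatter within a row has no meaning). The members span −1.98 to 1.23, naive markers lie mostly above 0, and NK and myeloid markers mostly below.

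Several members are also strongly expressed in myeloid and NK cells, so the markers of those cells are given beside them. Of 23 myeloid markers 11 were tested, 9 fell and 0 rose (9 and 0 length-corrected; median −0.60, and −0.74 length-corrected), and their summed level was 158.9 to 167.7 CPM in rapamycin and 235 to 248 CPM in untreated libraries. The lysozyme gene Lyz2 changed by −2.20, the macrophage gene Mpeg1 by −1.66 and Ctss by −0.36 (−0.20 length-corrected), and no gene of the list was at 0 in all libraries. S100a8 and S100a9, which are among the 9 that fell, passed the filter on low counts only through the untreated libraries, so their falls are descriptions only. Of 14 NK and cytotoxic markers 8 were tested, 5 fell and 1 rose (5 and 1 length-corrected; median −1.62), at 61.1 to 65.2 CPM in rapamycin and 70.4 to 74.0 CPM in untreated libraries, with Gzma at −1.84, Tyrobp at −1.76, Fcer1g at −2.28 and Klrb1c at −1.63. Tyrobp, Fcer1g and Klrb1c passed the filter on low counts only through the untreated libraries, so their falls are descriptions only. The 1 that rose was Nkg7, at 6.82 CPM in rapamycin and 4.64 CPM in untreated libraries (0.555, or 0.83 length-corrected).

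Markers of other cells moved less evenly. Of 17 B and plasma cell markers 16 were tested, 7 fell and 0 rose (6 and 1 length-corrected; median −0.16), at 1358 to 1398 CPM in rapamycin and 1696 to 1756 CPM in untreated libraries, with Jchain at −3.87, Ighm at −0.58, Igkc at −0.65 (−0.27 length-corrected) and Cd79b at −0.28 (−0.09 length-corrected, not called), and with Tnfrsf17 at 0. Of 8 CD8 T cell markers 4 rose and 1 fell (3 and 1 length-corrected; median 0.26), at 238.8 to 247 CPM in rapamycin and 157.8 to 168.5 CPM in untreated libraries. Cd8a rose by 3.09, Cd8b1 by 1.66 and Runx3 by 0.17 (0.11 and not called length-corrected), and Crtam changed by −0.72 (−0.71 length-corrected). Of 12 platelet and erythroid markers 4 were tested, with Hbb-bs at −2.46, Hba-a2 at −1.64 and Itga2b at 0.80, and the list's sum was 7.21 to 8.23 CPM in rapamycin and 9.89 to 14.2 CPM in untreated libraries. Jchain, Hbb-bs and Hba-a2 passed the filter on low counts only through the untreated libraries, so their falls are descriptions only. Of 10 gamma delta and innate-like T cell markers 3 were tested and 1 fell, Klrb1c, at 31.0 to 38.8 CPM in rapamycin and 36.5 to 38.0 CPM in untreated libraries, with Il23r at 0. Of 12 stromal and endothelial markers only Pecam1, which naive T cells carry too, was tested (0.20), and 7 were at 0 in all libraries, among them Col1a2, Col3a1, Dcn and Kdr. T cell identity genes were lower in 12 of 15 cases and higher in 1 (10 and 3 length-corrected; median −0.27, and −0.10 length-corrected), with Trac at −0.80 (−0.52 length-corrected), Thy1 at −0.60, Trbc1 at −0.41 (−0.09 length-corrected) and Lck at −0.30 (−0.18 length-corrected), at 6447 to 6526 CPM in rapamycin and 7721 to 7755 CPM in untreated libraries. The part of any of these cells in the members' changes was not tested.

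The genes whose level over the 6 libraries was most like that of Cd44, by Pearson's r of log2 CPM, were Jak3 (0.9997), Cdk5rap3 (0.9995), Rps9 (0.9994), Rps2 (0.9992) and Chmp1a (0.9990). Since the groups lie far apart, such an r mostly says that a gene differed between them and varied little within. Among the members it was 0.992 for Vim, 0.989 for Crip1, 0.978 for Lgals1, 0.926 for S100a11 and 0.818 for Anxa2, and −0.996 for Ahnak and −0.973 for S100a10. The log2 fold change of Jak3, a kinase gene of cytokine receptors, was −0.78, smaller in size than that of Cd44. Mtor, the gene of the kinase itself, rose by 0.30 (0.02 and not called length-corrected), and the ribosomal gene Rps6 fell by 0.31 (−0.04 and not called length-corrected).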

How the data were processed

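Poly(A) RNA of naive CD4+ T cells from mouse spleen was sequenced in 3 libraries after in vivo rapamycin and 3 from untreated mice. Per the submitters' processing notes, STAR and RSEM were used with mm10. Their versions are not given in the sources used here. The deposited tables hold, per the file headers, expected counts, TPM, FPKM (not used) and 2 gene lengths (plain and effective) for 55487 genes. The authors' expected counts divide reads shared between genes, and the authors' TPM values are scaled by effective length and depth. Per the labels' protocols, libraries were made with a strand-keeping kit (NEBNext Ultra II Directional). Symbols and positions came from GENCODE vM21 (GRCm38, the assembly of mm10), which matched 55227 identifiers, and promoters from RefSeq (GRCm38.p6).

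Expected counts were rounded, filtered with filterByExpr (11950 genes), scaled with TMM and tested with edgeR's quasi-likelihood test (robust, group as the only term) with Benjamini-Hochberg adjustment over all tested genes and a threshold of 0.05. A gene could pass the filter through 1 group alone, and a higher level in that group was then favoured. Among such genes were S100a6, S100a8, S100a9, Ccr2, Mmp9, Mmp14, Lrp1, Hbb-bs, Hba-a2 and Jchain, whose changes are descriptions only. The SE is the log2 fold change over the square root of F. The length correction fits each library's deviations of log2 CPM on log2 length by a natural spline (5 degrees of freedom), used as offsets. Near-identical transcripts were sought with BLAST. The members, lists and tests were chosen with earlier results of these data known. The genes to name were the members; from each list up to 4 others with an adjusted p under 0.05 by smallest p, or up to 2 by level where none passed; the 5 most like Cd44; annotated pseudogenes and overlapping genes of members; and Mtor and Rps6. Other genes named were chosen after their values were seen, and some genes are not reported here. Replicate pairs of a group differed by 1.74 to 2.00 times counting noise, more than re-reads of 1 library would, which does not show that they came from separate mice or RNA. The procedure was tested on simulated data. Fits used edgeR 4.0.16 in R 4.3.3, with limma 3.58.1 and DESeq2 1.42.0 as alternatives; tables and figures used Python 3.11.15 with matplotlib 3.10.9.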

Additional observations from a re-analysis of the deposited data

How the results depend on the processing

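Of 170 values of the 9 tested members under the alternatives, 151 kept their direction and their side of the threshold. Cd44 ranged from −1.76 to −1.27, Crip1 from −1.58 to −1.13, Lgals1 from −1.63 to −1.25, Vim from −1.09 to −0.88, S100a6 from −2.74 to −1.43, Ahnak from 0.70 to 1.29 and S100a10 from 0.26 to 0.63, all keeping their call wherever they were tested. For S100a6 the kept call is a description only, since the gene passed the filter on low counts only through the untreated libraries. Anxa2 (−0.70 to −0.39) lost its call under 10 of 19 alternatives. S100a11 was not called under 9 of 19, among them the length correction with or without the replicate block, where it turned to 0.14, as Cd74 turned to 0.035. S100a4 was tested only without a filter (8 members lower), and S100a6 was left out by a filter of 2 CPM in 3 libraries. Members higher stayed at 2 under each alternative, and members lower were 5 to 6 without any 1 library and 5 with DESeq2, TPM, effective-length offsets or the length correction.

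Over all genes, 2874 were higher and 2785 lower. The lower ones were 1151 with log2(TPM + 1), 1137 with log2(TPM + 0.1) and 1801 with effective-length offsets, and the cause was not tested. Calls were 50.8% higher as reported and 70.3% with log2(TPM + 1), and log2(TPM + 0.1), at 70.4%, shifted the median of all genes by 0.11, with each member except S100a11 and Anxa2 still called in its direction. Same-numbered libraries did not deviate together (r = −0.105 to 0.046), which does not show whether the numbers pair the libraries. With the replicate block 2850 genes were higher and 2743 lower, and 7 members lower. Depth limits S100a4 and S100a6, whose rapamycin libraries held at most 5 counts.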
